A study of Mus musculus with 2 samples.

Results

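The 3 mitochondrial porins Vdac1, Vdac2 and Vdac3 and the 3 inner-membrane carriers Slc25a3, Slc25a4 and Slc25a5 were followed through long-read RNA sequencing of mouse cerebral cortex. The members were chosen by name. A member's reads are those of every transcript model that the deposited tables give to the gene, and its models were compared by their intron positions. All 6 members were detected in both libraries, among 18510 annotated genes with a read in at least 1 library and 11339 genes with the 10 or more reads needed for a test.

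The mice were B6CASTF1/J females aged 14 days, F1 hybrids of a C57BL/6J by CAST/EiJ cross with no transgene or treatment in the labels, and the tissue was the left side of the cortex. There was 1 group of 2 libraries, replicate 1 and replicate 2, each made from 2 µg of RNA with ERCC and SIRV spike-ins. The tissue of replicate 1 is described as coming from 3 females and that of replicate 2 from 1 female, whereas the library descriptions of both name the same pool, so the labels do not settle whether the libraries came from separate animals. Every p-value below compares these libraries against counting error alone. Counts sum both parental alleles.

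The porins are beta-barrel channels of the outer mitochondrial membrane, and metabolites such as ATP, ADP and phosphate cross that membrane through them. Slc25a4 (also called ANT1) and Slc25a5 (ANT2) exchange ADP for ATP across the inner membrane, and Slc25a3 carries in the phosphate that ATP synthase joins to ADP. Cortical neurons depend on this route for the ATP that ion pumping and synaptic transmission consume. Slc25a4 is known as the form of heart, skeletal muscle and brain, and Slc25a5 as the form of many dividing cells.

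The 6 genes lie on 6 loci of 5 chromosomes in the mm10 assembly, given here with GENCODE M21 coordinates. The porins are Vdac1 (ENSMUSG00000020402.11, chr11:52360860-52389397, plus strand), Vdac2 (ENSMUSG00000021771.14, chr14:21825238-21845879, plus strand) and Vdac3 (ENSMUSG00000008892.12, chr8:22577075-22593813, minus strand). Their leading annotated transcripts share 6 coding exon lengths in the same order, 50, 153, 53, 228, 151 and 58 bases, followed by 89 coding bases in the last exon. The coding sequences of 849, 885 and 849 bases were identical at 70.7% of aligned bases between Vdac1 and Vdac2, 66.0% between Vdac1 and Vdac3, and 71.5% between Vdac2 and Vdac3. Vdac2 has 1 coding exon more, at the 5′ end. Among the carriers, Slc25a4 (ENSMUSG00000031633.4, chr8:46206797-46211284, minus strand) and Slc25a5 (ENSMUSG00000016319.3, chrX:36795651-36798807, plus strand) have coding sequences of 894 bases each, 77.4% identical, and share exons 2 and 3 of 487 and 141 bases. Slc25a3 (ENSMUSG00000061904.12, chr10:91116574-91124059, minus strand) has 8 exons and a coding sequence of 1071 bases, 52.7% identical to that of Slc25a4 over 868 aligned bases.

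**Figure D1:**
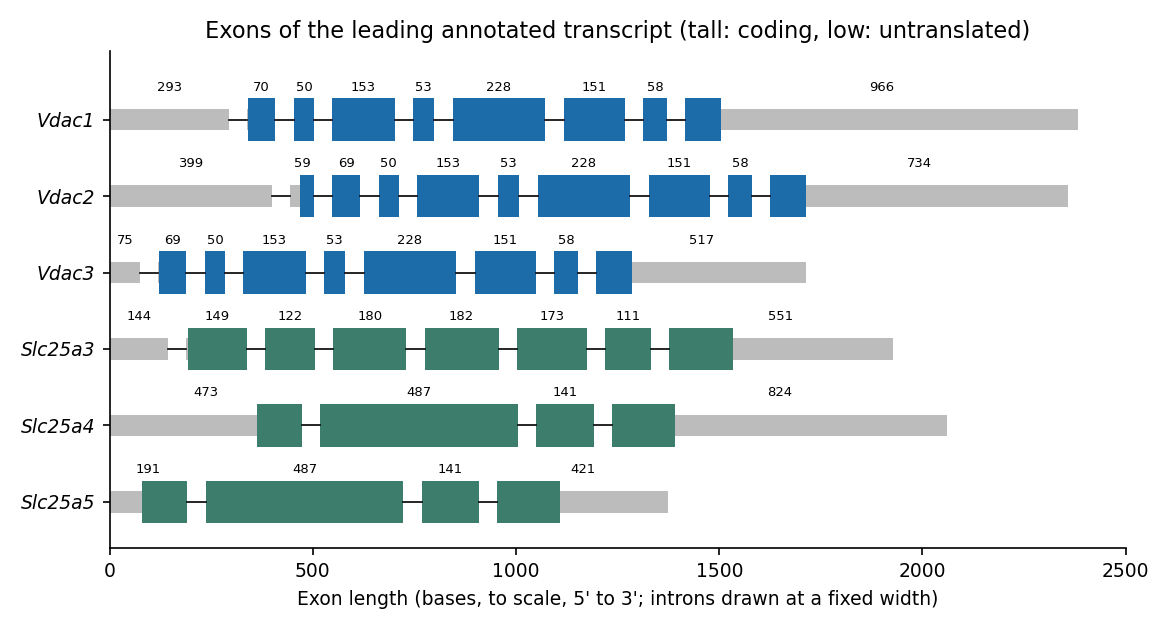
Exons of the leading annotated transcript of each gene, drawn to scale from 5′ to 3′ with the length in bases above each exon; tall boxes are coding bases, low boxes are untranslated bases, and introns have a fixed width. The 3 porins repeat the exon lengths 50, 153, 53, 228, 151 and 58, and Slc25a4 and Slc25a5 share exons of 487 and 141 bases.

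The shared porin exon of 50 bases is shown because its 3′ end is where the Vdac3 reads departed from the annotation. It lies at chr11:52374918-52374967 in Vdac1, chr14:21833801-21833850 in Vdac2 and chr8:22587553-22587602 in Vdac3. Capitals mark the 20 positions at which the 3 porins are not all alike, and 30 positions are common to all.
Vdac1 exon 3: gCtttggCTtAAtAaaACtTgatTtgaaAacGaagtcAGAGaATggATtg
Vdac2 exon 4: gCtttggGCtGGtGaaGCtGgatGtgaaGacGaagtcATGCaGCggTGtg
Vdac3 exon 3: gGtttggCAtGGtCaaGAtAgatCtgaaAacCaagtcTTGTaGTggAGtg

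Another annotated Vdac3 transcript, ENSMUST00000179233.1, extends the same exon by 3 bases, to chr8:22587550-22587602. Capitals mark those 3 bases.
Longer annotated Vdac3 exon 3: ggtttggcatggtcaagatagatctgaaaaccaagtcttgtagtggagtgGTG

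Slc25a3 has a pair of mutually exclusive forms of exon 3, and they are shown because the choice between them is the best-known variable site of the 6 genes. Exon 3A lies at chr10:91122207-91122331 and is used in transcript ENSMUST00000170810.7. Exon 3B lies at chr10:91121922-91122043 and is used in the leading transcript, ENSMUST00000076694.12. Exon 3A is known from heart and skeletal muscle, exon 3B from most other tissues. The exons are 125 and 122 bases long and were identical at 77 of 122 aligned positions (63.1%), and capitals mark the differing or unpaired bases.
Exon 3A: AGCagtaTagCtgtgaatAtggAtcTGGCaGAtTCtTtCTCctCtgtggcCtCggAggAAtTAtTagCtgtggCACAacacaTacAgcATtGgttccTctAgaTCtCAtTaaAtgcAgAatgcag
Exon 3B: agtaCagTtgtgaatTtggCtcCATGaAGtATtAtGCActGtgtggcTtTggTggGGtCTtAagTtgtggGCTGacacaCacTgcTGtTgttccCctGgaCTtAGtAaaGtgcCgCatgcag

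Exon 3 of the ADP/ATP carriers is shown as a measure of how well a read that holds it tells them apart. Reads within the last exon alone do not hold it. It lies at chr8:46208398-46208538 in Slc25a4 and chrX:36797736-36797876 in Slc25a5. The exons matched at 110 of 141 positions (78.0%), and capitals mark the 31 that differ.
Slc25a4 exon 3: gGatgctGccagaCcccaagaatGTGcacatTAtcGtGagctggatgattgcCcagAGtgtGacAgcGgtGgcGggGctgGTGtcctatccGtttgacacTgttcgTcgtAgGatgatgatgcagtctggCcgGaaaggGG
Slc25a5 exon 3: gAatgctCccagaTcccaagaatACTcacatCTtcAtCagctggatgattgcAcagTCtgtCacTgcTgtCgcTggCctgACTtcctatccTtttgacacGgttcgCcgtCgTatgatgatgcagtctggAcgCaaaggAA

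Replicate 1 held 1072344 mouse reads and replicate 2 held 753520, beside 14936 and 8856 ERCC reads, so 3 reads correspond to 2.80 and 3.98 reads per 1000000 mouse reads (RPM). Markers fixed for neurons and astrocytes were present for all 8 genes of each list, and striated muscle markers were detected for 11 of 21, with a summed level of 73.7 RPM in replicate 1 and 57.1 RPM in replicate 2. Of the muscle list, Actc1, Myh2, Myh4, Ckmt2, Tnnt2, Tnnt3, Tnni3, Tnni2, Mb and Myl1 had no read in either library. The list that differed most between the libraries was that of oligodendrocytes, with a summed level of 6075 RPM in replicate 1 and 3590 RPM in replicate 2.

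The carriers were more abundant than the porins. A long read is counted once whatever its length, so RPM were compared between genes without division by length, and whether recovery of a molecule depended on its length was not tested. Slc25a4, the ADP/ATP carrier of brain, heart and muscle, led with 2644 reads in replicate 1 and 1702 in replicate 2, or 2466 and 2259 RPM. It was the gene with the 13th highest count in replicate 1 and the 11th in replicate 2, of 16904 and 16364 annotated genes detected. Its mean of 2362 ± 146 RPM (SD, n = 2) stood above every other member in both libraries.

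Slc25a5, the other ADP/ATP carrier, had 1134 reads in replicate 1 and 651 in replicate 2, or 1057.5 and 864 RPM. Slc25a3, the phosphate carrier, had 954 reads in replicate 1 and 573 in replicate 2, or 889.6 and 760.4 RPM. The ranges of these carriers over the libraries overlapped, but such ranges mix the libraries. Within each library Slc25a5 was ahead, by 1.19 times in replicate 1 and 1.14 times in replicate 2. The Poisson intervals of Slc25a5 and Slc25a3 were apart in replicate 1, at 997 to 1121 against 834 to 948 RPM. They overlapped in replicate 2, at 799 to 933 against 699 to 825 RPM. The order was thus resolved against counting error in replicate 1 only. With spliced models alone, rescaled to their own total, the order turned, with a mean of 636 RPM for Slc25a5 and 1016 RPM for Slc25a3. Without the class Genomic, Slc25a5 averaged 547 RPM.

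Vdac3, the porin with the lowest channel activity in reconstituted membranes, had the highest count of the porins in both libraries. It had 350 reads in replicate 1 and 217 in replicate 2, or 326 and 288 RPM. Counted on annotated transcripts alone, Vdac3 would average 35.7 RPM and be the lowest porin, because most of its reads lay on an unannotated model. Vdac2, the porin that binds the cell-death protein Bak, had 301 reads in replicate 1 and 182 in replicate 2, or 281 and 242 RPM. Vdac1, the porin best known as the docking site of hexokinase, had 186 reads in replicate 1 and 129 in replicate 2, or 173 and 171 RPM.

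Vdac3 lay above Vdac2 by 1.16 times in replicate 1 and 1.19 times in replicate 2. The ranges of these porins over the libraries did not overlap, but within each library their 95% Poisson intervals did. The order of Vdac3 and Vdac2 was thus not resolved against counting error within either library. Vdac1 lay below Vdac2 by 1.62 times in replicate 1 and 1.41 times in replicate 2. All 3 porins together reached 781 RPM in replicate 1 and 701 RPM in replicate 2, against 3523 and 3123 RPM for the pair of ADP/ATP carriers.

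**Figure D2:**
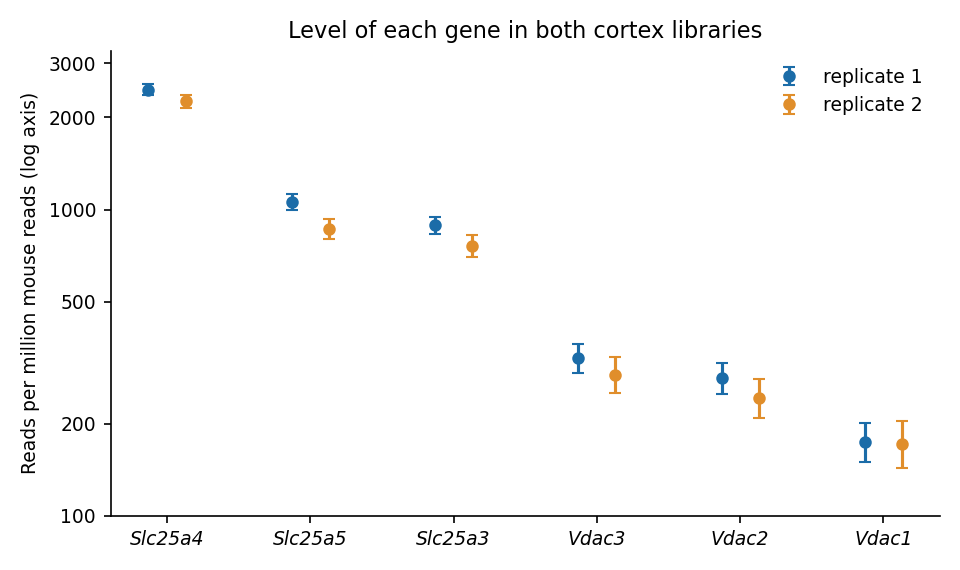
Level of each gene in RPM (log axis) in replicate 1 and replicate 2, ordered by the mean of the libraries; bars are 95% Poisson intervals of the count. Slc25a4 stands highest at 2466 and 2259 RPM, and Vdac1 is lowest at 173 and 171 RPM. The bars of Slc25a5 and Slc25a3 overlap in replicate 2 but not in replicate 1, and those of Vdac3 and Vdac2 overlap in both.

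Vdac3 supplied 41.8% of porin reads in replicate 1 with a Wilson 95% interval of 38.5 to 45.2%, and 41.1% in replicate 2, with one of 37.0 to 45.3%. Vdac2 supplied 36.0% and 34.5%, and Vdac1 22.2% and 24.4%, in replicates 1 and 2. Slc25a4 supplied 70.0% of the ADP/ATP carrier reads in replicate 1 (68.5 to 71.4%) and 72.3% in replicate 2 (70.5 to 74.1%). The intervals of the libraries overlapped for each of these shares, and their difference was not tested. The share of Slc25a4 depended on the reads counted and was higher with spliced models alone. Slc25a4 then had 2383 reads against 605 of Slc25a5 in replicate 1, and 1518 against 350 in replicate 2.

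Most Vdac3 reads ended exon 3 at a base that the annotation does not use. The leading chain of the gene, an ordered set of introns that matched no annotated transcript, took 307 of the 350 Vdac3 reads in replicate 1, and 185 of 217 in replicate 2. That is 87.7% (83.9 to 90.7%) and 85.3% (79.9 to 89.4%), with a mean of 86.5 ± 1.74% (SD, n = 2). The chain has 9 exons and differs at 1 splice site from the annotated transcript with the most reads (ENSMUST00000009036.10), since its exon 3 runs over chr8:22587549-22587602. That exon has 54 bases, 4 more than the exon printed above and 1 more than the longer annotated form.

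Counted over every Vdac3 model that holds exon 3 and the intron after it, the 54-base form took 317 of 343 Vdac3 reads in replicate 1, or 92.4%, and 193 of 214 (90.2%) in replicate 2. The annotated 50-base form took 25 reads in replicate 1 and 21 in replicate 2. The annotated 53-base form had no read in either library, which allows a share of up to 0.875% in replicate 1 and 1.40% in replicate 2. The 53-base form differs from the 50-base form by a whole codon, and the 54-base form does not.

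The authors' tables class the leading chain as a new combination of known splice sites in both libraries, although the end of its exon 3 is no splice site of GENCODE M21. A form of VDAC3 mRNA with an ATG codon from a very short exon at this junction is known from brain, heart and muscle of mouse and human. The shortest inner exon in any Vdac3 model was 30 bases. The bases of the reads at this junction were not used here, and whether they hold such a codon was not tested.

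A leading chain outside the annotation was uncommon at this depth. Of 1192 genes with 100 or more full-chain reads in each library, that is reads of annotated or full unannotated chains, 49 (4.11%) had one, and in 12 of these it held over 80% of such reads in each library, Vdac3 among them. Among full-chain reads of Vdac3 the share was 90.3% in replicate 1 and 86.4% in replicate 2 (Fisher's exact test, p = 0.169, adjusted p = 1). The annotated 50-base chain supplied 23 reads in replicate 1 and 19 in replicate 2, or 6.76% and 8.88% of full-chain reads.

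The other porins kept to their annotated transcripts. The leading Vdac2 transcript (ENSMUST00000022293.13), of 10 exons, took 282 of 293 full-chain reads in replicate 1 (96.2%) and 171 of 176 in replicate 2 (97.2%). The leading Vdac1 transcript (ENSMUST00000102758.7), of 9 exons, took 139 of 155 in replicate 1 (89.7%) and 97 of 109 in replicate 2 (89.0%). An annotated Vdac1 transcript that starts downstream (ENSMUST00000020673.2, named after its values were seen) took 8 reads in replicate 1 and 5 in replicate 2. The median share of the leading chain over the 1192 genes was 92.2% in replicate 1 and 91.3% in replicate 2, so Vdac2 lay above it and Vdac1 and Vdac3 below it in both libraries.

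**Figure D3:**
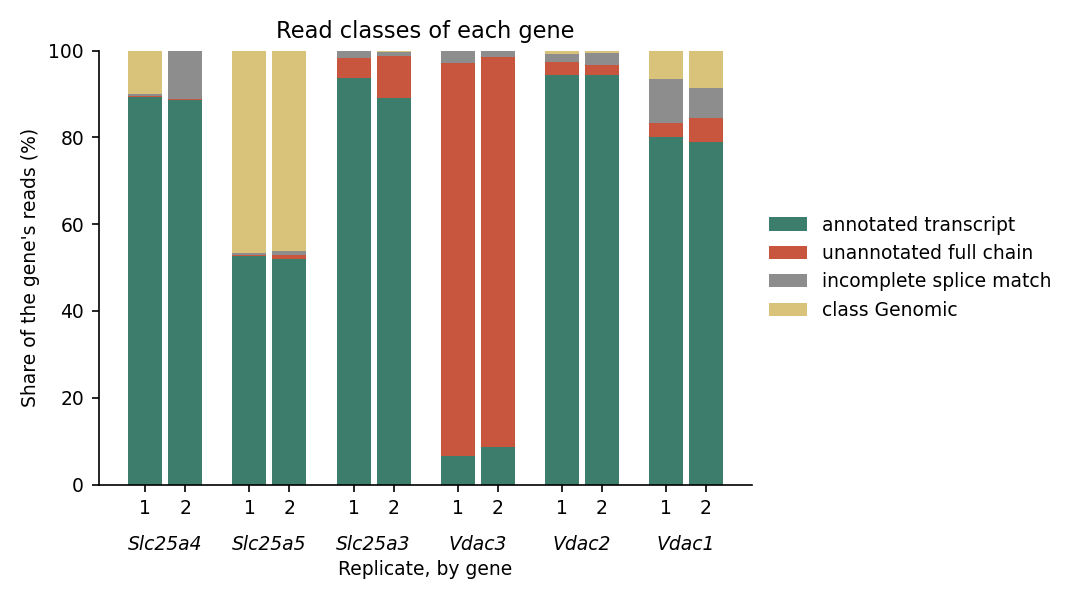
Share of each gene's reads (percent) by the authors' class of the transcript model, for replicates 1 and 2 of each gene, ordered by level. Vdac3 stands out with 90.6% and 89.9% of reads on unannotated full chains, and Slc25a5 with 46.6% and 46.2% of reads in the class Genomic.

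Slc25a3 was almost wholly of the 3B form. In replicate 1, 918 reads held exon 3B alone and no read held exon 3A alone, which allows a share of exon 3A of up to 0.327%. In replicate 2, 538 reads held exon 3B alone and 1 read held exon 3A alone, a share of 0.186% (Wilson 95% interval 0.0328 to 1.04%). The share of exon 3B was 100% in replicate 1 and 99.8% in replicate 2, and this difference did not pass the test (two-sided Fisher's exact test, p = 0.370). The detected muscle markers with the most reads were Myh7 with 21 reads in replicate 1 and 17 in replicate 2, Cox6a2 with 20 and 10, and Acta1 with 13 and 10.

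A further 19 reads in replicate 1 and 25 in replicate 2 covered both exons. In replicate 1, 1 of them held both as whole exons with a spliced intron on each side. Another 1 in replicate 1, of a model of 7 exons, also spliced exon 3A to exon 3B but ran on upstream of exon 3A without a splice. In replicate 2, 0 reads held both as whole exons. Exon 3A lies inside the second intron of the leading Slc25a3 transcript. That intron was retained in 11 reads in replicate 1 (1.18% of reads that spliced or retained it) and 24 reads in replicate 2 (4.27%). These counts include 4 reads of an incomplete model of 6 exons in replicate 2 but leave out its 6 reads in replicate 1. The libraries were thus not counted alike. The leading chain with the retained intron, of 7 exons with 1 exon over chr10:91121922-91123706, had 10 reads in replicate 1 and 16 in replicate 2. Its share of full-chain reads was 1.07% in replicate 1 and 2.83% in replicate 2 (Fisher's exact test, adjusted p = 0.586).

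The leading Slc25a3 transcript, of 8 exons, took 873 of 938 full-chain reads in replicate 1 (93.1%, interval 91.3 to 94.5%) and 495 of 566 in replicate 2 (87.5%, 84.5 to 89.9%). The intervals did not overlap, but the difference missed the threshold over all chains (Fisher's exact test, p = 0.000386, adjusted p = 0.0615). Of 8445 chains tested, 49 passed (0.580%). Of the 13 member chains tested none passed, and 3 had an unadjusted p under 0.05, against 490 of all chains. All 3 belong to Slc25a3 and are shares of the same full-chain reads, so their tests are not independent.

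The third of them, named after its values were seen, with 9 reads in replicate 1 and 14 in replicate 2, spliced the first intron 4 bases from the annotated end of the first exon (adjusted p = 0.724). Slc25a3 had 23 unannotated full chains, 8 of them seen in both libraries, the most of any member. In Slc25a3, 28 of 30 reads with such a site in replicate 1 and 33 of 36 in replicate 2 had every splice site outside the annotation within 10 bases of an annotated one. In Vdac1 this held for 1 of 5 such reads in replicate 1 and 2 of 7 in replicate 2, and in Slc25a4 for 3 of 5 and 2 of 5. Over all annotated genes the share was 31.2% in replicate 1 and 35.0% in replicate 2, and over the members without the leading Vdac3 chain it was 72.7% and 78.5%, with most of these reads from Slc25a3.

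The ADP/ATP carriers, of 4 exons each, had 1 dominant spliced form each. The leading Slc25a4 transcript (ENSMUST00000034049.4), of 4 exons, took 2360 of 2368 full-chain reads in replicate 1 (99.7%) and 1506 of 1513 in replicate 2 (99.5%). The leading Slc25a5 transcript (ENSMUST00000016463.3), of 4 exons, took 597 of 601 in replicate 1 (99.3%) and 339 of 345 in replicate 2 (98.3%). Both lay above the median leading chain in both libraries.

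Nearly as many Slc25a5 reads lay within the last exon alone as spanned a junction. A 1-exon model at chrX:36798553-36798807, of the authors' class Genomic, took 529 of 1134 reads in replicate 1 (46.6%, interval 43.8 to 49.6%) and 301 of 651 in replicate 2 (46.2%, 42.4 to 50.1%). The model starts 166 bases into the last exon of 421 bases, beyond its 155 coding bases, and ends with the gene, so it holds no coding base. Reads of this model cross no splice site, and reads that retained the second intron numbered 3 in replicate 1 and 0 in replicate 2. Among 1456 genes with an annotated intron and 100 or more reads in each library, 44 had a larger share of 1-exon reads in replicate 1 and 48 in replicate 2. The median share was 2.25% in replicate 1 and 2.37% in replicate 2.

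Slc25a4 had a 1-exon model of its own, at chr8:46207136-46207620, with 261 reads in replicate 1 (9.87%) and 184 in replicate 2 (10.8%). It covers the first 485 bases of the last exon, all 155 coding bases of that exon included, and stops 339 bases short of the annotated end. The unannotated spliced models of Slc25a4 stop at the same base. The authors class the 1-exon model as Genomic in replicate 1 and as an incomplete splice match in replicate 2. Vdac1 had such reads too, 12 in replicate 1 (6.45%) and 11 in replicate 2 (8.53%), in the last exon. Vdac2, Vdac3 and Slc25a3 had between 1 and 4 per library. Model ends are those of the deposited models and may differ from the ends of single reads.

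The share of a gene's reads that span each junction was close between the libraries. Each of the 3 junctions of Slc25a5 was spanned by 53.0 to 53.4% of its reads in replicate 1, and by 53.0 to 53.8% in replicate 2. In Slc25a4 the share was 89.5 to 90.1% in replicate 1 and 88.7 to 89.1% in replicate 2. Vdac1 was the member with the steepest change. Its share went from 75.3% at the first to 93.5% at the last junction in replicate 1, and from 76.7% to 91.5% in replicate 2. The 8 reads in replicate 1 and 5 in replicate 2 of its transcript that starts downstream do not hold the first junction. Neither do some unannotated Vdac1 chains with another end of the first exon. The cause of the change was not tested. In Vdac2, Vdac3 and Slc25a3 the first junction was spanned by 95.9 to 96.7% of reads in replicate 1 and 96.2 to 98.6% in replicate 2.

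**Figure D4:**
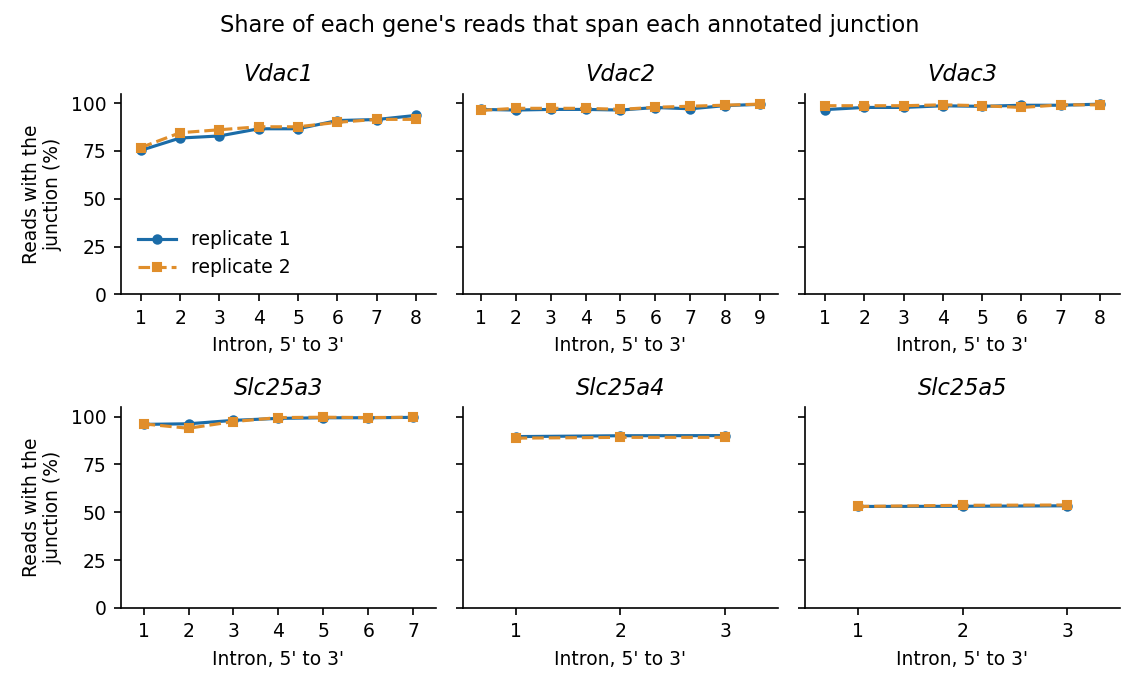
Share of each gene's reads (percent) that span each junction of its leading annotated transcript, within 10 bases, against intron number from 5′ to 3′, for replicate 1 (circles) and replicate 2 (squares). Slc25a5 stays near 53% throughout, and Vdac1 climbs from 75.3% and 76.7% at the first junction to 93.5% and 91.5% at the last.

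Between the libraries, 1 of the porins and carriers passed the test. With an exact binomial test adjusted over all 11339 genes, 100 genes were called (0.882%), 59 of them higher in replicate 1 (0.520%) and 41 lower (0.362%). Among the 6 members 1 was called, Slc25a5, with a log2 ratio of replicate 1 over replicate 2 of 0.29 (95% interval 0.15 to 0.43, exact binomial test p = 3.52e-05, adjusted p = 0.00688). Without reads of the class Genomic its log2 ratio was 0.27 and its adjusted p 0.151, and with spliced models alone 0.23 and 0.438, so the call was lost under both. The share of those reads was 46.6% in replicate 1 and 46.2% in replicate 2.

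Slc25a3 had a log2 ratio of 0.23 (0.08 to 0.38, adjusted p = 0.157) and Slc25a4 one of 0.13 (0.04 to 0.22, adjusted p = 0.208) by the same exact test. The intervals of these 2 carriers excluded 0, but they are not adjusted for the number of genes. For the porins the log2 ratio was 0.18 in Vdac3 (−0.07 to 0.43), 0.22 in Vdac2 (−0.05 to 0.49) and 0.02 in Vdac1 (−0.31 to 0.35), all with 0 inside the interval. All 6 log2 ratios were above 0, with a median of 0.20, against 50.4% of all tested genes above 0 and a median of 0.0035. Genes of 300 or more reads in total, like the members, were above 0 in 65.9%, with a median of 0.07 and 49 of 1143 called (4.29%).

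Oligodendrocyte markers moved with the libraries. Of 8, 6 were called higher in replicate 1 (exact binomial test), among them Mbp, a myelin protein, with 3673 RPM in replicate 1 and 2142 RPM in replicate 2, Cnp with 909 and 660 RPM, and Trf with 297 and 147 RPM. The part of this difference in the ratio of Slc25a5 was not tested. In a bulk sample, fewer cells of a type and less RNA per cell cannot be told apart. None of the tested neuron (8), astrocyte (8), microglia (6), endothelial and mural (7), red blood cell (5) or muscle markers (4) was called, with median log2 ratios of 0.18, −0.12, −0.03, −0.08, −0.35 and 0.15 in that order.

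**Figure D5:**
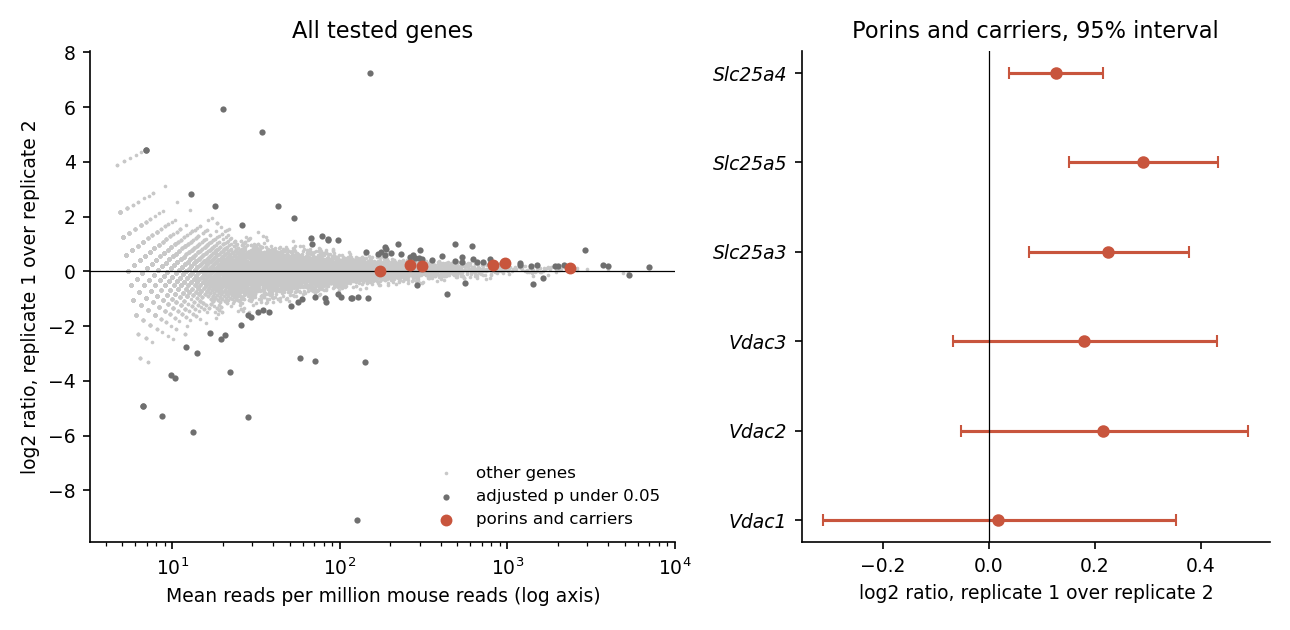
Left, log2 ratio of replicate 1 over replicate 2 against mean RPM (log axis) for all 11339 tested genes, with the 100 called genes dark and the porins and carriers in red. Right, the ratio of each porin and carrier with its 95% interval, where Slc25a5 at 0.29 is highest and is the 1 member called.

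The partners of these proteins were measured in the same libraries. Of the 19 annotated genes of the ATP synthase list, whose enzyme uses the ADP and phosphate the carriers bring in and which includes its inhibitory factor Atpif1, none was called, and 15 had a log2 ratio above 0 (median 0.08). The list held 19 names, of which Atp5md was not matched, and the name Atp5o stands for 2 genes. Atp5b had 1950 RPM in replicate 1 and 1957 RPM in replicate 2, Atp5a1 1325 and 1155 RPM, and Atp5g1 468 and 401 RPM. Slc25a4 was higher than each of these subunits in both libraries.

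Of 47 other SLC25 carriers, 42 were detected and 34 tested, and none was called (median log2 ratio −0.04). Summed over the list, they reached 3211 RPM in replicate 1 and 3224 RPM in replicate 2, against 2466 and 2259 RPM for Slc25a4 alone. The most abundant were Mtch1, an outer-membrane relative of the carriers, with 1012 and 1005 RPM in replicates 1 and 2, Slc25a22, a glutamate carrier, with 315 and 324 RPM, and Slc25a11, the oxoglutarate carrier, with 197 and 165 RPM. The testis ADP/ATP carrier Slc25a31, a list member outside the naming rule and named after its values were seen, had no read in replicate 1 and 1 read in replicate 2.

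Of 19 genes for porin partners and outer-membrane regulators of cell death, 18 were detected and 14 tested, and none was called (median log2 ratio 0.17). Hk1, the brain hexokinase that docks on Vdac1, had 365 RPM in replicate 1 and 354 RPM in replicate 2, above Vdac1 at 173 and 171 RPM. Ckmt1, the mitochondrial creatine kinase of the intermembrane space, had 259 and 231 RPM, and Mfn2, a fusion protein of the outer membrane, had 256 and 216 RPM in replicates 1 and 2. Of 9 genes of the calcium uniporter list all were detected and 8 tested, with none called (median log2 ratio −0.06). There Letm1 had 180 and 162 RPM and Smdt1 150.1 and 145 RPM in replicates 1 and 2.

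Copies of these genes elsewhere in the genome took few reads. By alignment of transcripts over 200 or more bases at 75% identity or more, 33 annotated pseudogenes resembled a member, 13 of them Vdac1, 13 Slc25a5, 4 Vdac3, 2 Slc25a3 and 1 Vdac2. The closest were Vdac3-ps1 at 99.5% to Vdac3 and a copy of Slc25a5 at 98.3%. Of all 33, Vdac3-ps1 alone had reads, 4 in replicate 1 and 1 in replicate 2. The tables give each read to 1 gene, so reads that fit a copy equally well are uncertain.

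On the opposite strand of Vdac2 the gene Comtd1 overlaps, with 18 reads in replicate 1 and 11 in replicate 2. Reads on the opposite strand of the other 5 members numbered 5 or fewer per library. On the same strand, 1 read in replicate 2 at the Slc25a4 locus was given to another model, which left its log2 ratio at 0.13.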

How the data were processed

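The authors deposited, for each library, a table of raw read counts per transcript model and the models' exons. Per the file headers, the build is mm10 and the annotation GENCODE M21, and the models name TALON as their source. Aligner, instrument and versions: not given in the sources used here. In replicate 1, 21336 of 21344 annotated models had the exons of the M21 file used here.

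Counts were summed per gene after leaving out spike-ins. RPM are reads per 1000000 mouse reads. Models were matched between libraries by intron positions. For genes with 10 or more reads, an exact binomial test (two-sided) set the share of reads in replicate 1 against that of the library totals. Chains with 10 or more reads, in genes with 20 or more full-chain reads in each library, were compared by Fisher's exact test. Both p-values were adjusted by Benjamini-Hochberg at 0.05. Log2 ratios use a pseudocount of 0.5 reads. Intervals are 95% (Wilson for shares, Poisson for RPM, Clopper-Pearson for ratios) and cover counting error only, with no term for variation between animals. No correction for duplicate molecules was applied here. A count of 0 allows up to 3 reads. The tests were checked on simulated counts drawn with counting error alone, which does not check them against variation between animals.

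Sequences were cut from the GENCODE M21 transcripts by exon coordinates. Copies were found with blastn 2.17.0. Python 3.11.15, scipy 1.17.1 and Biopython 1.88 were used, and TMM factors came from edgeR 4.0.16 and size factors from DESeq2 1.42.0.

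The members and gene lists were chosen with earlier results of these data known. Named are all members, their models with 5% or more of reads, and unannotated chains with 10 or more reads in each library. Also named are copies with reads, and from each list up to 3 of the most abundant genes with up to 4 called ones. Some genes that this rule names are not reported here. The lists hold other SLC25 carriers, porin partners, the calcium uniporter, ATP synthase, and markers of striated muscle, neurons, astrocytes, oligodendrocytes, microglia, endothelial and mural cells and red blood cells.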

Additional observations from a re-analysis of the deposited data

How the results depend on the processing

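No paired analysis was possible because the series has 1 group of 2 libraries. The count of genes that differed between the libraries, 100, became 35 with annotated transcripts only, 176 without reads of the class Genomic and 63 with spliced models only, the last chosen after seeing the data. The log2 ratio of Vdac1 turned to −0.037 with annotated transcripts only and to −0.0030 with spliced models only, that of Vdac3 to −0.31 with annotated transcripts only, and that of Slc25a4 to −0.029 without the class Genomic, where 261 reads in replicate 1 but none in replicate 2 are left out by their class. No member was called under these settings, and the log2 ratio of Slc25a5 was then 0.23 with annotated transcripts only (adjusted p = 0.491, exact binomial test), 0.27 without the class Genomic and 0.23 with spliced models only. Scaling by TMM or by DESeq2 size factors, another pseudocount and same-strand reads of the locus kept each member's side of 0 and of the threshold.

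Levels moved with the reads counted, since each setting has its own library total. The levels and shares in this paragraph are means of both libraries. With annotated transcripts only, Slc25a4 had 3208 RPM, Slc25a3 1152, Slc25a5 767, Vdac2 376, Vdac1 209.6 and Vdac3 35.7. With spliced models only, Slc25a4 had 2620.0 RPM, Slc25a3 1016, Slc25a5 636, Vdac3 378, Vdac2 321 and Vdac1 197, so Slc25a5 then lay below Slc25a3. Without the class Genomic, Slc25a5 had 547 RPM and Vdac1 169.6. Leading chains taken over all reads of the gene held 88.9% in Slc25a4, 52.4% in Slc25a5, 74.96% in Vdac1 and 93.8% in Vdac2. The leading Vdac3 chain held 88.4% of full-chain reads, and its unannotated junction 89.6% of all reads. Depth limits the porins most, with 129 to 350 reads per library.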
